A study of Mus musculus with 2 samples.

Results

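The genes described here are 47 mouse genes whose transcripts mark cells that copy their DNA or divide. They were taken by symbol from a list of 22 S phase genes and 25 G2/M genes, and all 47 were found among the 31053 genes counted. Their transcripts were measured by droplet-based sequencing of transcript 3′ ends in single cells from MTC-Q1 tumours, MTC-Q1 being a mouse oral cancer line, under the skin of C57BL/6 mice. In 1 group the injected cells were MTC-Q1 miR-21 KO and in the other MTC-Q1 WT. All mice of both groups received cisplatin, a drug that crosslinks DNA, at 5 mg/kg after 2 weeks of tumour growth, and cells were isolated 72 hr later. Dead cells were removed, and cells carrying CD45, the surface protein of leukocytes encoded by Ptprc, were selected with beads. Each group gave 1 library, and the labels do not say how many mice or tumours it holds. Barcodes end in a library number that no source used here ties to a group. They are called library 1 and library 2 here, so a difference between the libraries has no direction between miR-21 KO and WT. A single library per group allows no test of a difference. The 95% intervals given with the values describe counting error alone.

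A dividing cell first licenses its replication origins with the MCM2 to MCM7 helicase, loaded by the products of Cdc6 and Cdt1, and then copies its DNA in S phase with the sliding clamp PCNA and a supply of deoxynucleotides. In G2 and mitosis cyclins A and B activate the kinase CDK1, chromosomes condense and attach to the spindle, and the anaphase-promoting complex ends mitosis by destroying the cyclins. The S phase genes are known targets of E2F factors, and many G2/M genes are controlled through CCAAT boxes and the cell cycle homology region, CHR, which the DREAM and MuvB complexes bind. Activated T cells and NK cells divide rapidly, resting naive T cells do not, and macrophages of tissues and tumours can also divide in place.

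Library 1 held 4977 cells and library 2 held 6740 cells after filtering, with medians of 6999 and 14801 unique molecular identifiers (UMIs, the counted molecules) per cell. Cell types are gates on fixed marker genes, none of which is a member, and a name below means only that the cell passed that gate. Each gated leukocyte type had a median of 0 UMIs per cell for fibroblast, epithelial, erythroid and neutrophil markers in both libraries. Monocyte markers differed between the libraries, with medians of 3 and 12 UMIs in CD8 T cells and 1 and 6 in other T cells. In naive-type T cells the medians were 0 and 9, and in B cells 2 and 27. The 7 B cells of library 2 had a median of 9 B cell marker UMIs. The part of monocyte marker UMIs in the T cell and B cell results was not tested. Cells of the fibroblast gate had a median of 0 Ptprc UMIs although cells had been selected for CD45. In all, 36249 UMIs of library 1 and 129583 of library 2 came from the S phase genes, and 67598 and 386385 from the G2/M genes. Mitochondrial transcripts took a median of 3.98% of a cell's UMIs in library 1 and 2.09% in library 2. The 2 libraries share 8 barcode sequences.

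The promoters of the members differ in the letters named above, and 6 windows are printed to show them. RefSeq windows of 250 bases before to 50 bases after the start, on GRCm38.p6, were found for 41 of the 47 members. The E2F core searched was TTCCCGC or TTGGCGC, the CHR was TTTGAA and the CCAAT box CCAAT, each on both strands. The windows shown belong, for each list, to the 3 members with the most UMIs among those whose 1 window holds the E2F core (S phase) or the CHR (G2/M), so the motif was a condition of the choice. Capitals mark these 3 motifs, on either strand, and overlapping matches run together. The first 3 are S phase genes: Mcm6 and Mcm3 encode helicase subunits, at chr1:128359656-128359955 and chr1:20820263-20820562, both on the minus strand, and Hells, at chr19:38930740-38931039 on the plus strand, encodes a chromatin remodeller.
Mcm6: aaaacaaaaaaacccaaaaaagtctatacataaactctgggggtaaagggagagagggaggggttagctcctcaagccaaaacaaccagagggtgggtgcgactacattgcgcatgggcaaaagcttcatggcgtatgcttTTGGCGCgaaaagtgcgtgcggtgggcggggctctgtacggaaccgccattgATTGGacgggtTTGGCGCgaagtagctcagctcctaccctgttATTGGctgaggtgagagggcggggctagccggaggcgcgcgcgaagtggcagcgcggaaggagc
Mcm3: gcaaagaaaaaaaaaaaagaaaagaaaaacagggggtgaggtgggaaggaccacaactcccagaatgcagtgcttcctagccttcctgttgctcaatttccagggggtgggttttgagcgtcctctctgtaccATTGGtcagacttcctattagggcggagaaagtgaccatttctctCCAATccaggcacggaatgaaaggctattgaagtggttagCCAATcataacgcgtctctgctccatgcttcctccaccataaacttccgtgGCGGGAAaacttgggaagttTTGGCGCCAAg
Hells: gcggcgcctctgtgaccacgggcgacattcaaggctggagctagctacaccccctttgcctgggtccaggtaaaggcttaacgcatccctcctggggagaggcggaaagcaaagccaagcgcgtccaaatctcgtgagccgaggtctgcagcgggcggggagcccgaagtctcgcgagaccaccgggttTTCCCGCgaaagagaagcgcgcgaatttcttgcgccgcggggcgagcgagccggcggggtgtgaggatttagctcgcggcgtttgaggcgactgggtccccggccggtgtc
The other 3 are G2/M genes. Hmgb2, at chr8:57511593-57511892 on the plus strand, encodes a DNA-bending chromatin protein, Top2a, at chr11:99024140-99024439 on the minus strand, the topoisomerase that untangles sister chromatids, and Ube2c, at chr2:164769679-164769978 on the plus strand, the ubiquitin-conjugating enzyme of the anaphase-promoting complex.
Hmgb2: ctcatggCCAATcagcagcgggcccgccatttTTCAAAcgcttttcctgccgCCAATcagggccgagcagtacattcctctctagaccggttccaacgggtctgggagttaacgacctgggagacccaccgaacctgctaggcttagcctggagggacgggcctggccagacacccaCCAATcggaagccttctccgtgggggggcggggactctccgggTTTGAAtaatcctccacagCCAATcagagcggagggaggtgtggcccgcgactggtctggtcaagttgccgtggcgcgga
Top2a: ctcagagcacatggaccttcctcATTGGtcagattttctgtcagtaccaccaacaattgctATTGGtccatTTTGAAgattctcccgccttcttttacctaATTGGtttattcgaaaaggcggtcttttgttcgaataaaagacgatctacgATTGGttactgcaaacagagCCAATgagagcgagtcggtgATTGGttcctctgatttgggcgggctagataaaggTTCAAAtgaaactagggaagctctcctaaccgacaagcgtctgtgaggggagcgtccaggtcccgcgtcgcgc
Ube2c: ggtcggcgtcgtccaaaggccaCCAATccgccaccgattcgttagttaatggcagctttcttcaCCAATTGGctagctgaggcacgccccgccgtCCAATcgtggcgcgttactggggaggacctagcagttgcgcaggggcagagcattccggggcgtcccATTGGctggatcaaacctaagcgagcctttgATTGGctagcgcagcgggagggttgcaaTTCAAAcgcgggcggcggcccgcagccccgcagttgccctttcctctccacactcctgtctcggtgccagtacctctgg

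Over all members with a window, the E2F core was present in 11 of 19 S phase genes (57.9%) and in 3 of 22 G2/M genes (13.6%), against 7.79% of all 27025 genes with a window. The CHR was present in 2 of 19 S phase genes (10.5%) and 16 of 22 G2/M genes (72.7%), against 20.2% of all genes. CCAAT was present in 13 of 19 (68.4%) and 20 of 22 (90.9%), against 41.1% of all genes. The CHR matches of the G2/M genes had a median position of -18.5 bases from the start, and 15 of the 22 lay within 60 bases of it. The E2F matches of the S phase genes had a median of -54.5 bases, and 10 of 20 lay within 60 bases. Cdk1, Ccnb1 and Mki67 were the G2/M genes with an E2F core, and Mcm2 and Cdc45 the S phase genes with a CHR. A match here is a run of letters and not a shown binding site.

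**Figure D1:**
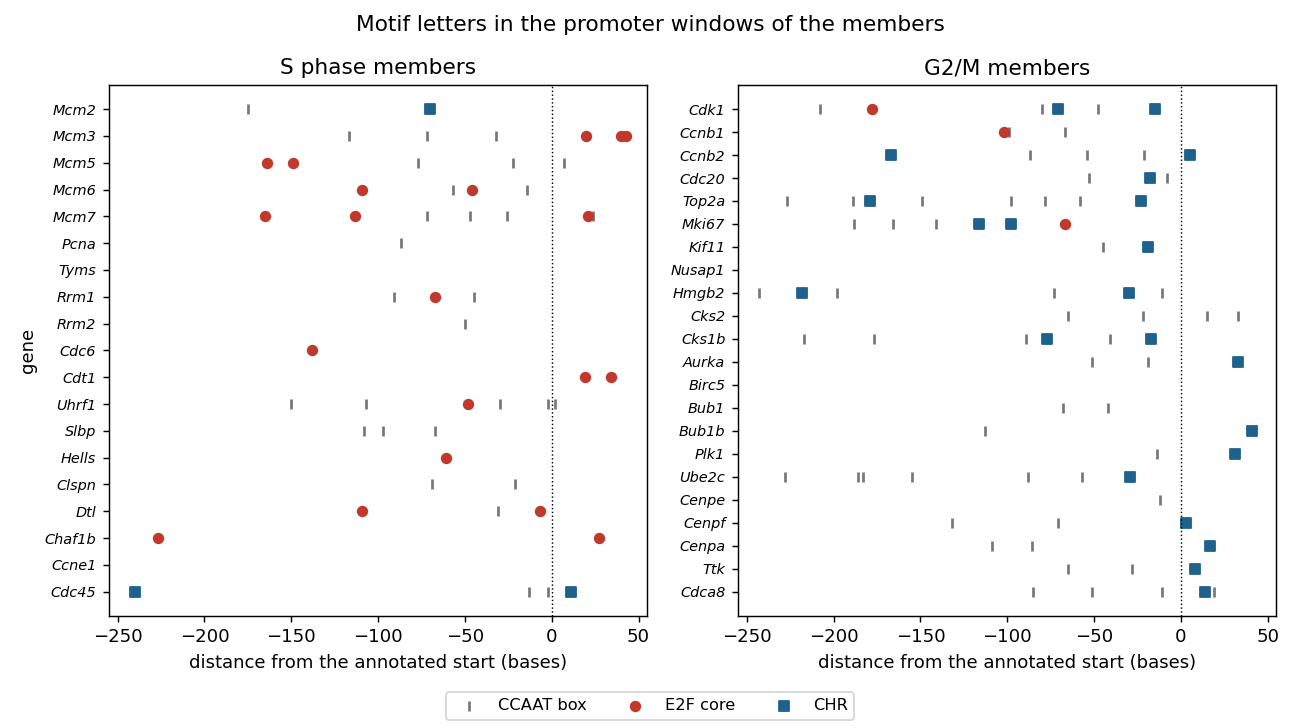
Position of each motif match in the windows of the 41 members that have one, by distance in bases from the annotated start (x axis), 1 gene per line, S phase genes left and G2/M genes right; circles are E2F cores, squares CHRs and ticks CCAAT boxes. Circles occur mainly in the left panel (11 of 19 genes) and squares mainly in the right panel (16 of 22 genes).

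To find dividing cells, every cell was thinned at random to 4000 UMIs and its UMIs of the S phase list and of the G2/M list were summed. The cut of each list is the smallest sum that at most 1% of the 2475 naive-type T cells of library 1 reached, which gave 8 UMIs for the S phase list and 10 UMIs for the G2/M list. By these cuts, 280 of 4977 cells of library 1 were past at least 1 cut, 5.63% (exact binomial interval 5.00 to 6.30%), and 1807 of 6740 of library 2, 26.8% (25.8 to 27.9%). Without thinning the same cuts were passed by 22.5% and 51.2% of cells, shares that grow with depth. At the S phase cut or 1 UMI below it lay 95 and 354 cells, and at the G2/M cut or 1 UMI below it 41 and 113. These totals mix very different populations, since naive-type T cells make up 2475 cells of library 1 and 35 of library 2.

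T cells showed the widest gap between the libraries. CD8 T cells were past a cut in 29 of 264 cells of library 1, 10.98% (7.48 to 15.4%), and in 310 of 630 of library 2, 49.2% (45.2 to 53.2%). The remaining T cells outside the naive, regulatory, gamma-delta and CD8 gates, called other T, had 54 of 442, 12.2% (9.31 to 15.6%), in library 1 and 365 of 754, 48.4% (44.8 to 52.0%), in library 2. The intervals of the libraries lie far apart, and library 2 was higher under all 8 settings tried. T cells short of the naive gate's marker minimum can fall into these gates, and naive-type T cells numbered 2475 and 35. With stricter gates other T held 713 and 833 cells, of which 11.2% and 48.6% were past a cut. The part of missed naive-type T cells in the gap was not tested. With cuts that at most 0.1% of naive-type T cells passed, the shares were 4.17% and 9.84% in CD8 T cells and 4.53% and 10.9% in other T cells. Median depth before thinning was 8269 UMIs for CD8 T cells in library 1 and 12132.5 in library 2, and the unthinned shares were 35.98% and 70.95%. Regulatory T cells had 15 of 91 in library 1, 16.5% (9.53 to 25.7%), and 12 of 48 in library 2, 25% (13.6 to 39.6%). Gamma-delta T cells had 11 of 54, 20.4% (10.6 to 33.5%), and 50 of 140, 35.7% (27.8 to 44.3%), and for both of these types the intervals overlap.

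By these cuts NK cells and macrophages lay closer between the libraries. NK cells, innate lymphocytes that kill target cells, had 34 of 120 past a cut in library 1, 28.3% (20.5 to 37.3%), and 256 of 689 in library 2, 37.2% (33.5 to 40.9%). Macrophages had 53 of 388, 13.7% (10.4 to 17.5%), and 329 of 2106, 15.6% (14.1 to 17.2%). In both types these intervals overlap, although thinning to 2000 UMIs gave NK shares of 19.2% and 32.2%, further apart. With the 0.1% cuts the shares were 3.33% and 6.68% in NK cells and 0.258% and 1.24% in macrophages, so the contrast with the T cells depends on the cut. Monocytes, the blood-borne cells that can become macrophages, had 9 of 153, 5.88% (2.73 to 10.9%), and 28 of 782, 3.58% (2.39 to 5.13%). Those past a cut had medians of 2 T cell, 2 NK and 0 macrophage marker UMIs in library 1, against 0, 0 and 2 below. In library 2 these were 0, 0 and 1 against 0, 0 and 2. Their median doublet scores were 0.0935 against 0.0893 and 0.0742 against 0.020. The ratio of median UMIs was 1.85 and 2.96. The part of doublets and other lineages in the monocyte shares was not tested. The cDC1 dendritic cells, which present antigen to CD8 T cells, had 2 of 13 in library 1 and 21 of 58 in library 2, 36.2% (24.0 to 49.9%), whereas cDC2 cells had 2 of 12 and 9 of 107, 8.41% (3.92 to 15.4%). In library 2 the cDC1 and cDC2 intervals do not overlap, and library 1 has too few of these cells to show it.

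The types in which few cells should divide give the background of these shares. B cells had 5 of 491 past a cut in library 1, 1.02% (0.332 to 2.36%), at a median of 5214 UMIs, and 0 of 7 in library 2, which allows a share of up to 40.96%. Migratory dendritic cells had 0 of 11 in library 1, which allows up to 28.5%, and 2 of 56 in library 2, 3.57% (0.436 to 12.3%), at a median of 10859 UMIs. Plasmacytoid dendritic cells had 0 of 15 in library 1, which allows up to 21.8%, and 1 of 33 in library 2, 3.03% (0.0767 to 15.8%), at a median of 7893 UMIs. The monocyte share of library 2, 3.58%, lies near those of migratory and plasmacytoid dendritic cells there. In library 1 the monocyte interval, 2.73 to 10.9%, lies above that of B cells. Naive-type T cells of library 1 set the cuts and were past one in 24 of 2475 cells, whereas the 35 cells of that gate in library 2 had 8 past a cut, 22.9% (10.4 to 40.1%).

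Cells of the fibroblast gate were past a cut in 18 of 84 in library 1, 21.4% (13.2 to 31.7%), and in 142 of 459 in library 2, 30.9% (26.7 to 35.4%). They were the deepest cells by far, at medians of 49660.5 and 46221 UMIs before thinning, and their unthinned shares were 73.8% and 82.6%. With stricter gates this gate held 66 and 297 cells, of which 16.7% and 18.2% were past a cut. Fibroblast marker UMIs were fewer past a cut. Their medians were 21.5 against 60.5 below the cuts in library 1 and 13.5 against 27 in library 2. The part of weakly marked cells in these shares was not tested. Cells outside every gate with a Ptprc UMI had 9 of 139, 6.47%, and 137 of 395, 34.7%, past a cut. Cells outside every gate without one had 6 of 29, 20.7%, and 96 of 309, 31.1%. Cells with markers of more than 1 lineage had 9 of 196, 4.59%, and 41 of 132, 31.1%.

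**Figure D2:**
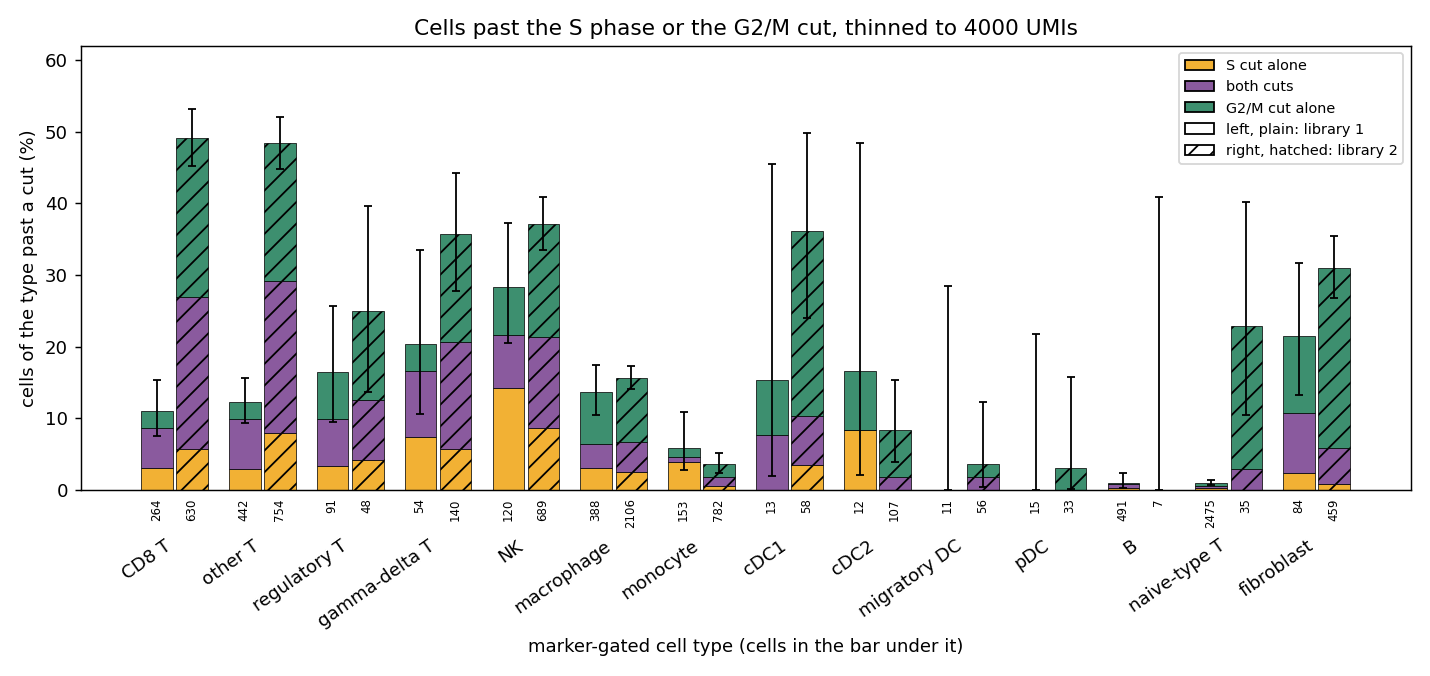
Percent of cells past a cut (y axis) in 14 marker-gated types, library 1 as the left plain bar and library 2 as the right hatched bar, split into cells past the S phase cut alone, past both and past the G2/M cut alone; lines are exact 95% binomial intervals of the whole bar and small numbers are cells. CD8 T and other T cells stand near 11 and 12% in library 1 and near 49 and 48% in library 2, while macrophages stand at 13.7% and 15.6%.

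Cells past a cut were split by which cut they passed, into S-only, both and G2/M-only cells. Among types with at least 30 cells past a cut, NK cells of library 1 had the largest S-only part, 17 of 34 cells or 50% (32.4 to 67.6%), against 60 of 256 or 23.4% (18.4 to 29.1%) in library 2. Other T cells were S-only, both and G2/M-only in 13, 31 and 10 cells of library 1 and in 60, 160 and 145 of library 2. CD8 T cells had 8, 15 and 6 such cells in library 1. G2/M-only cells thus made up a smaller part of the dividing CD8 T cells in library 1, 20.7% (7.99 to 39.7%), than the 140 of 310 cells of library 2, although few cells carry the first value. Macrophages had 12, 13 and 28 cells in library 1 and 52, 90 and 187 in library 2. Fibroblast-gated cells of library 2 had the largest G2/M-only part by the same rule, 115 of 142 cells or 81.0% (73.6 to 87.1%), with 4 S-only cells. These parts depend on the settings. Without Hmgb2, Slbp, Cks1b and Pcna the last value was 52.35%, and with the 0.1% cuts 33.3%. The S-only part of other T cells was 44.6% and 28.35% without these 4 genes and 65.0% and 70.7% with the 0.1% cuts. That of macrophages was 100% in both libraries with those cuts, the only value possible. Their highest G2/M sum was 54 UMIs in library 1 and 56 in library 2, and that G2/M cut was 57.

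Gated cells called S-only or G2/M-only carried several members each. S-only cells held a median of 7 S phase members and 2 G2/M members in library 1, and 8 and 3 in library 2, at 4000 UMIs per cell. G2/M-only cells held 3 S phase and 11 G2/M members in library 1, and 3 and 12 in library 2. Cells below both cuts held 1 of each in both libraries. Hmgb2 alone gave 65.2% of the G2/M UMIs of S-only cells in library 1, and 54.9% of those in library 2. In G2/M-only cells its part was 35.2% and 29.7%. Cells past a cut also held more RNA in all. Their median UMIs were 16818.5 in other T cells of library 1, against 7313 below the cuts, and 17995 against 10118 in library 2. The ratio of the medians was 1.68 and 1.30 in macrophages, 2.15 and 1.66 in NK cells and 2.68 and 2.26 in fibroblast-gated cells. The part of cell size, of RNA per cell and of doublets in this was not tested; the median doublet score was 0.0874 past a cut and 0.0666 below in other T cells of library 1, and 0.0339 and 0.0235 in library 2.

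Levels of single members were compared over all cells of a type, in UMIs scaled to a total of 1000000 for the type (CPM), unthinned. In such sums a type with fewer dividing cells and a type with less RNA per dividing cell cannot be told apart. Among the 5 types with at least 100 cells in both libraries (CD8 T, other T, NK, macrophage and monocyte), NK cells had the highest level of 18 of the 22 S phase members and 23 of the 25 G2/M members in library 1. In library 2 other T cells led for 17 of 22 and 19 of 25. The leading type was the same in both libraries for 4 S phase and 3 G2/M members. Leads were taken without regard to counting error, and some are near ties. Mcm3 in library 2 was at 95.9 CPM (90.5 to 101.5) in other T and 94.95 CPM (88.9 to 101.3) in CD8 T cells.

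Among the helicase genes, Mcm6 stood at 62.3, 73.97, 129.1, 27.6 and 25.3 CPM in CD8 T, other T, NK, macrophage and monocyte cells of library 1. In library 2 it stood at 89.3, 100.5, 105.5, 40.5 and 24.4 CPM in the same order. NK cells led in both libraries for Mcm6, and the library 1 interval of NK cells (112.8 to 147.2 CPM) lies above those of the other 4 types. Mcm2, another subunit, was at 59.7 CPM (48.8 to 72.3) in NK cells of library 1 and 31.3 CPM (28.3 to 34.7) in those of library 2, while other T cells had 37.3 and 38.2 CPM, a difference within counting error. Cdt1, the licensing factor, was at 39.0 CPM in NK cells of library 1 and 19.1 CPM in those of library 2.

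Among the genes of nucleotide supply and of the replication fork, Tyms, the thymidylate synthase gene, was at 27.4 CPM in CD8 T cells of library 1 and 105.1 CPM in library 2, and at 48.5 and 117.1 CPM in other T cells. Rrm2, the small subunit of ribonucleotide reductase, was at 30.0 and 100.9 CPM in CD8 T cells and at 25.7 and 26.4 CPM in macrophages. Both genes were lower in CD8 T cells of library 1, and in macrophages Tyms was at 22.6 and 32.6 CPM. Pcna, the sliding clamp, was at 159.4 and 141.1 CPM in CD8 T cells, 102.1 and 81.4 CPM in macrophages, and at 135.5 CPM in naive-type T cells of library 1, where 41.3% of thinned cells had a UMI. Dtl, which targets Cdt1 for destruction, was low in macrophages, at 6.67 and 8.35 CPM, against 44.5 and 43.9 CPM in CD8 T cells. Ccne1, encoding the cyclin E that starts S phase, stayed at or below 25.9 CPM in all 5 types.

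Of the G2/M members, Mki67, the proliferation antigen Ki-67 that coats mitotic chromosomes, stood at 67.5, 104.5, 137.8, 82.5 and 37.4 CPM in CD8 T, other T, NK, macrophage and monocyte cells of library 1. In library 2 it stood at 222.0, 230.8, 153.2, 74.5 and 31.9 CPM. It was at 12.3 CPM in naive-type T cells of library 1 and 14.5 CPM in B cells. Top2a was at 125.6, 156.7, 258.9, 120.0 and 50.1 CPM in library 1 and at 379.2, 382.4, 313.7, 123.6 and 58.6 CPM in library 2. Both genes were thus lower in T cells of library 1 and near each other in macrophages. Ccnb1, encoding cyclin B1, had 8 UMIs or 2.97 CPM (1.28 to 5.84) in CD8 T cells, against 263 UMIs or 27.5 CPM (24.3 to 31.0) in library 2.

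Ube2c stood at 49.3 CPM in CD8 T cells of library 1 and 317.8 CPM in library 2, at 91.9 and 121.8 CPM in macrophages, and at 141.9 and 320.4 CPM in fibroblast-gated cells. Plk1, the polo kinase that drives mitotic entry, was at 28.1 and 26.5 CPM in NK cells and at 4.45 and 21.7 CPM in CD8 T cells. Ttk, a kinase of the spindle checkpoint, had few UMIs in every type: 0 were counted in monocytes of library 1, which allows up to 1.65 CPM by a floor of 3 counts, and its highest level in the 5 types was 9.86 CPM in other T cells of library 2. Hmgb2 was abundant beyond dividing cells, with a UMI in 71.8% of thinned naive-type T cells of library 1 and 446.0 CPM there.

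**Figure D3:**
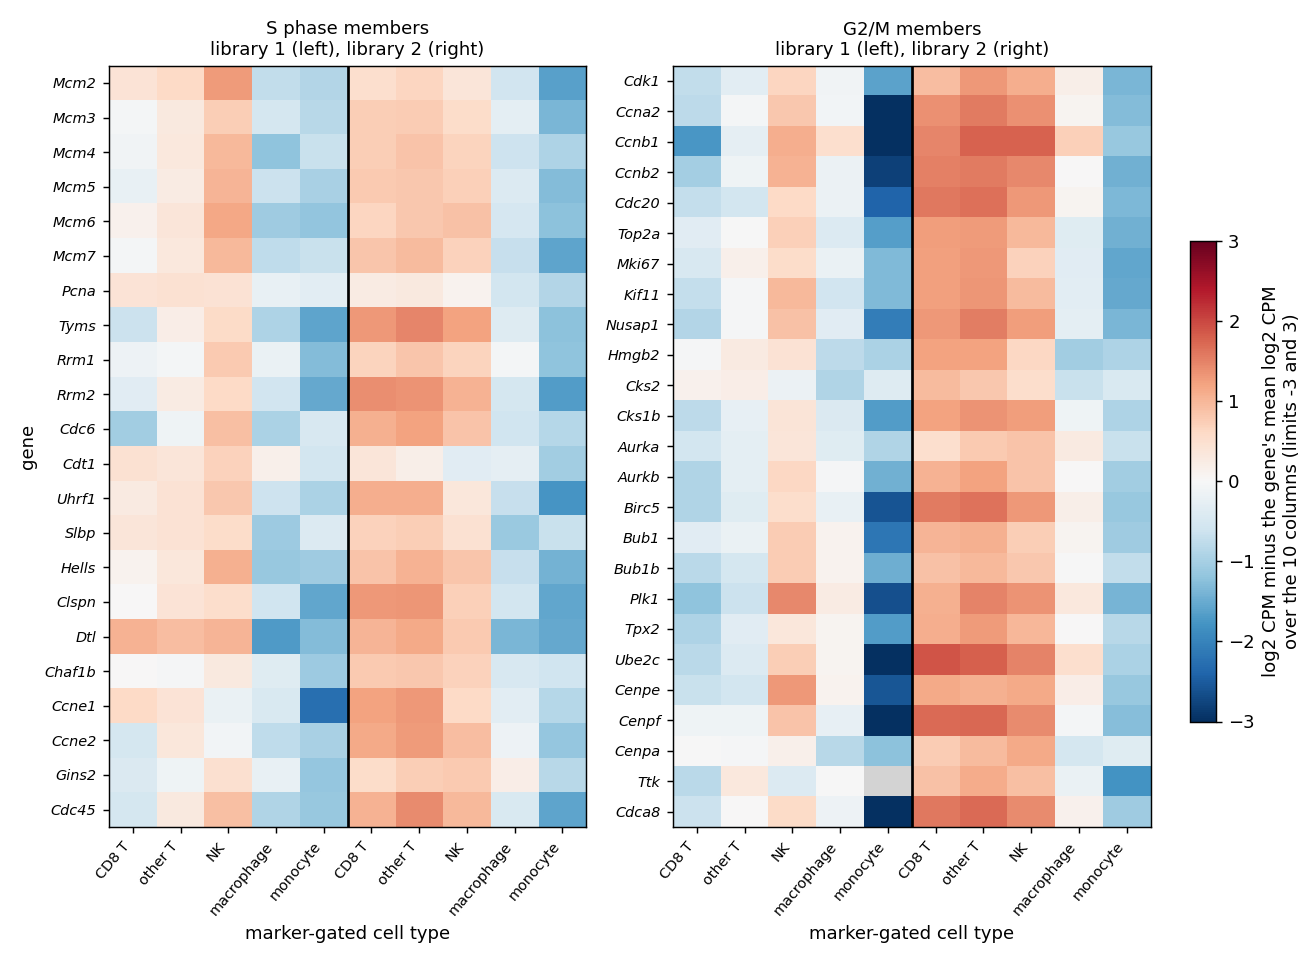
Level of each member (rows) in 5 gated types (columns, library 1 left of the line and library 2 right), shown as log2 CPM minus the gene's own mean over the 10 columns, red above and blue below it, with the colours ending at -3 and 3; grey marks Ttk in monocytes of library 1, with 0 UMIs. The NK column is the reddest of library 1 for most genes, and the CD8 T and other T columns are the reddest of library 2.

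The members also differed in the class of cells where they were high. Each member was measured in S-only, both and G2/M-only cells of all gated types together, and the class of each cell was set without that member, so that a gene could not choose its own class. The classes still rest on the other members, which makes these values a description. The 6 helicase genes were higher in S-only than in G2/M-only cells. Mcm2 was at 105.6, 91.3 and 25.9 CPM in S-only, both and G2/M-only cells of library 1. In library 2 it was at 79.8, 56.3 and 25.3 CPM. The log2 ratio of G2/M-only over S-only cells was -2.03 and -1.66 for Mcm2, -2.10 and -1.36 for Mcm4 and -2.06 and -1.57 for Mcm6. Cdc6 gave -2.20 and -1.34, and Cdt1 -0.997 and -0.71. Gins2, a subunit of the GINS complex of the active helicase, gave -1.02 and -0.81, Uhrf1, which carries DNA methylation through replication, -1.13 and -1.04, and Chaf1b, a histone chaperone subunit, -1.07 and -1.25. In all, 17 of 22 S phase members in library 1 and 18 in library 2 were higher in S-only cells with an interval below 0.

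Ribonucleotide reductase and thymidylate synthase departed from this. Rrm2 was at 26.8, 222.0 and 94.7 CPM in S-only, both and G2/M-only cells of library 1 and at 63.98, 217.4 and 81.2 CPM in those of library 2, which gives log2 ratios of 1.82 (1.32 to 2.36) and 0.34 (0.16 to 0.53). Tyms gave 0.51 (0.18 to 0.85) and 0.047 (-0.094 to 0.19), and Rrm1, the large subunit, 0.24 (-0.077 to 0.56) and -0.0051 (-0.16 to 0.15). All 3 were highest in cells past both cuts, as were 17 of the 22 S phase members in library 1 and 14 in library 2. Clspn, whose protein relays stalled forks to the checkpoint kinase, had ratios of -0.22 (-0.60 to 0.17) and -0.36 (-0.54 to -0.19). Cdc45, a part of the active helicase, had -0.71 (-1.34 to -0.093) and -0.19 (-0.49 to 0.11). Ccne1 had -0.76 (-1.55 to 0.023) and -1.16 (-1.48 to -0.83). Clspn, Cdc45 and Ccne1 each had an interval across 0 in 1 library.

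All 25 G2/M members were higher in G2/M-only than in S-only cells in both libraries, with intervals above 0. Ube2c had the largest ratio, 6.01 (5.28 to 6.85) and 5.71 (5.36 to 6.09), from 9.74 CPM in S-only and 627.5 CPM in G2/M-only cells of library 1 and 14.4 and 755.0 CPM in library 2. Plk1 stood at 5.25 and 4.02, Cenpe, a kinetochore motor, at 5.16 and 3.68, and Cenpf, another kinetochore protein, at 4.45 and 5.2, which was the second highest in library 2. At the other end stood Hmgb2, at 1.10 and 0.97, and Cks1b, a small CDK-binding protein, at 1.48 and 1.36. Ccna2, encoding cyclin A2, was at 130.5 CPM in cells past both cuts and 143.3 CPM in G2/M-only cells of library 1, whereas Ccnb1 was at 40.0 and 93.7 CPM. Kif11, a spindle motor, gave 3.79 and 2.78, Tpx2, which activates Aurora A, 3.28 and 2.47, and Aurkb and Cdca8 of the chromosomal passenger complex 2.95 and 2.19 and 3.09 and 2.57. Top2a, Mki67, Hmgb2, Nusap1, a spindle protein, and Bub1, a checkpoint kinase, were highest in cells past both cuts in both libraries.

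**Figure D4:**
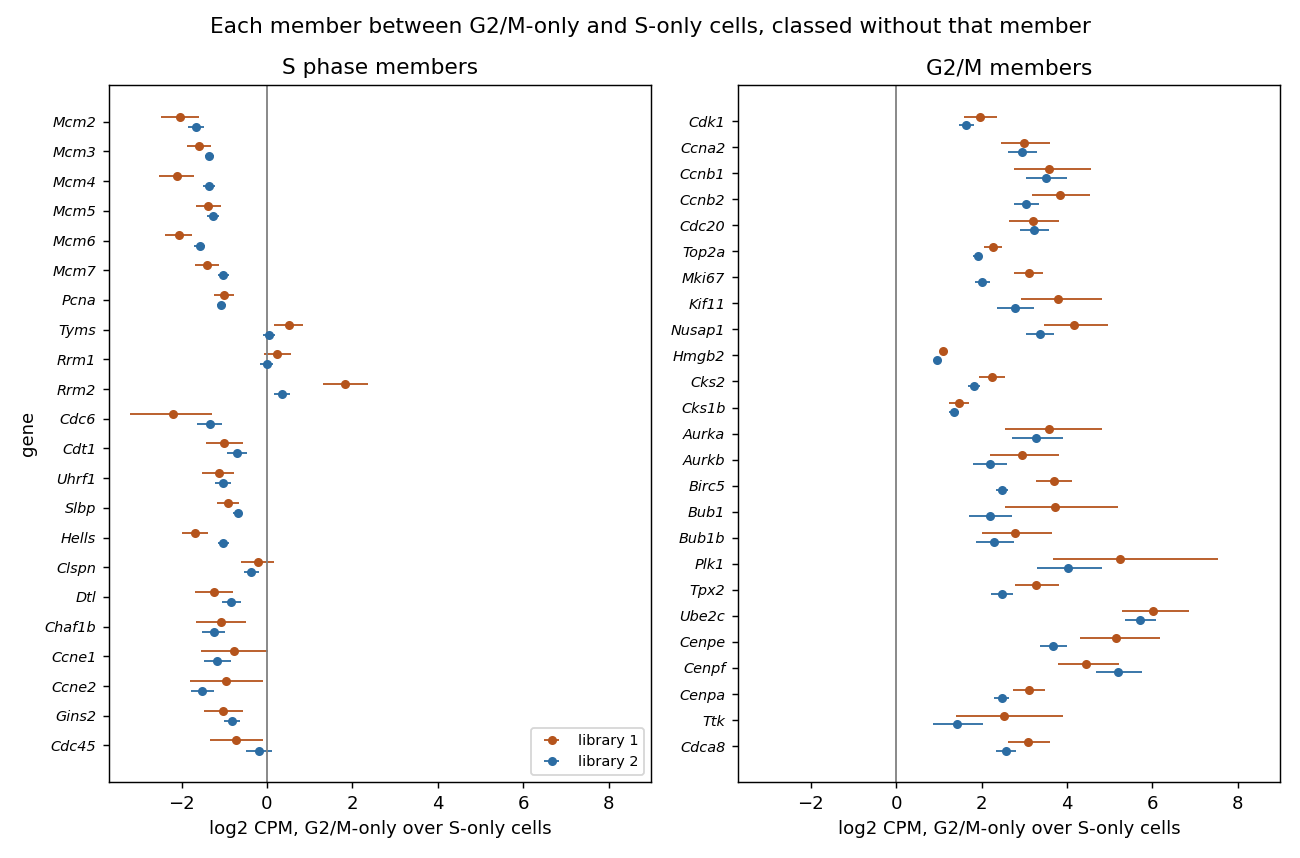
Log2 ratio of CPM in G2/M-only over S-only cells (x axis) for each member (lines), library 1 in brown above library 2 in blue, with exact conditional 95% intervals that cover counting error only; cells were classed without the member shown. The S phase members lie mostly left of 0, with Rrm2 right of it at 1.82 and 0.34, and the 25 G2/M members lie right of 0.

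Members differed in how far they rose above cells below both cuts. The same leave-out classes gave a median log2 ratio of 3.0 and 2.30 for S phase members past over below the cuts in libraries 1 and 2, and 5.75 and 4.40 for G2/M members. Slbp, the histone mRNA binding protein, at 0.68 and 1.32, Pcna at 1.07 and 1.33, and Cdt1 at 1.20 and 1.35 were the lowest in both libraries. Among the G2/M members, Cenpa, the centromeric histone, stood at 1.42 and 2.58 and Cks2, a small CDK-binding protein, at 1.84 and 2.46. Slbp was at 109.6 CPM below both cuts in library 1 and at 65.5 CPM in library 2. Bub1 had the highest ratio in library 1, at 7.43, with 0.249 CPM below the cuts.

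Within cell types, the library 1 over library 2 ratio of every gene with at least 50 UMIs in the type was taken, so that members can be read against all genes. In CD8 T cells 30 of 47 members were at least 2-fold lower in library 1, 7 S phase and 23 G2/M, where 14.0% of 9010 genes were. None was at least 2-fold higher, against 5.42% of genes. The median log2 ratio was -0.82 for the S phase and -1.93 for the G2/M members, against -0.15 for all genes. In other T cells 25 of 47 were at least 2-fold lower in library 1, 4 S phase and 21 G2/M, against 9.29% of genes, with medians of -0.68 and -1.59 against -0.042. None was at least 2-fold higher, against 7.96% of genes. Naive-type T cells missed by their gate may be among the CD8 T and other T cells, and their part in these ratios was not tested.

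The highest ratios in CD8 T cells belonged to S phase genes. The log2 ratio was -0.095 (-0.45 to 0.25) for Mcm2, 0.087 (-0.27 to 0.43) for Cdt1, 0.018 (-0.29 to 0.31) for Dtl and 0.18 (0.016 to 0.33) for Pcna. The lowest ratios were -3.21 (-4.44 to -2.21) for Ccnb1, -2.69 for Ube2c, -2.52 for Ccnb2, the cyclin B2 gene, and -2.45 for Birc5, encoding survivin of the chromosomal passenger complex. In other T cells the lowest were -2.19 for Ube2c and for Cdc20, the activator of the anaphase-promoting complex, and -2.13 for Plk1, while Mcm2, Cdt1 and Pcna stood at -0.034, 0.18 and 0.16.

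NK cells showed the same tilt between the lists with a smaller size. Their median log2 ratio was 0.15 for the S phase and -0.49 for the G2/M members, against 0.14 for all genes. One member, Ttk, was at least 2-fold lower in library 1 at -1.30 (-2.78 to -0.12), where 2.29% of 8816 genes were, and Cdt1 was at least 2-fold higher at 1.03 (0.62 to 1.43), where 5.71% were. Mcm2 stood at 0.93 (0.60 to 1.25). With stricter gates 10 members were at least 2-fold lower in NK cells, in place of 1.

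Macrophages gave no member at least 2-fold apart in either direction, where 3.24% of 11125 genes were lower and 3.58% higher in library 1. The median log2 ratio was -0.19 for both lists, against 0.052 for all genes. Top2a stood at -0.043 (-0.15 to 0.063), Mki67 at 0.15 (0.016 to 0.28) and Aurka, the centrosome kinase, had the lowest ratio at -0.64 (-1.06 to -0.23). In monocytes 39 members reached 50 UMIs, and 8 of these, all G2/M, were at least 2-fold lower in library 1 against 2.09% of genes, while none was at least 2-fold higher, against 3.64%. Ube2c had 4.40 CPM there in library 1, from 8 UMIs, against 44.9 CPM in library 2.

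The libraries lay closer among cells past a cut. Among other T cells past a cut, 0 of 47 members were at least 2-fold lower in library 1, against 5.55% of 8191 genes, and 1 was higher, against 4.35%. That gene was Mcm2, at 1.18 (0.84 to 1.52), followed by Pcna at 0.96 and Mcm3 at 0.84, while Ube2c stood at -0.78 and Cdc20 at -0.83. The median was 0.51 for the S phase and -0.14 for the G2/M members, against 0.053 for all genes. The cuts use the members themselves. The dividing other T cells of library 1 were S-only or past both cuts in 44 of 54 cells, and the part of this mix of classes in these values was not tested. Among macrophages past a cut 0 of 47 members were at least 2-fold apart, against 4.04% of genes lower and 2.75% higher.

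Below both cuts some members were still lower in library 1. Of 32 members tested in other T cells below the cuts, 10 were at least 2-fold lower, against 9.57% of genes, among them Birc5 with 2.23 CPM in library 1, against 20.5 CPM in library 2, and Tyms with 7.52 against 26.8 CPM. In CD8 T cells it was 11 of 26, against 13.5% of genes, in NK cells 3 of 28, against 3.2%, and in macrophages 11 of 45, against 3.04%. Only members with enough UMIs in these cells could be tested, and cells close to the cuts remain among them.

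**Figure D5:**
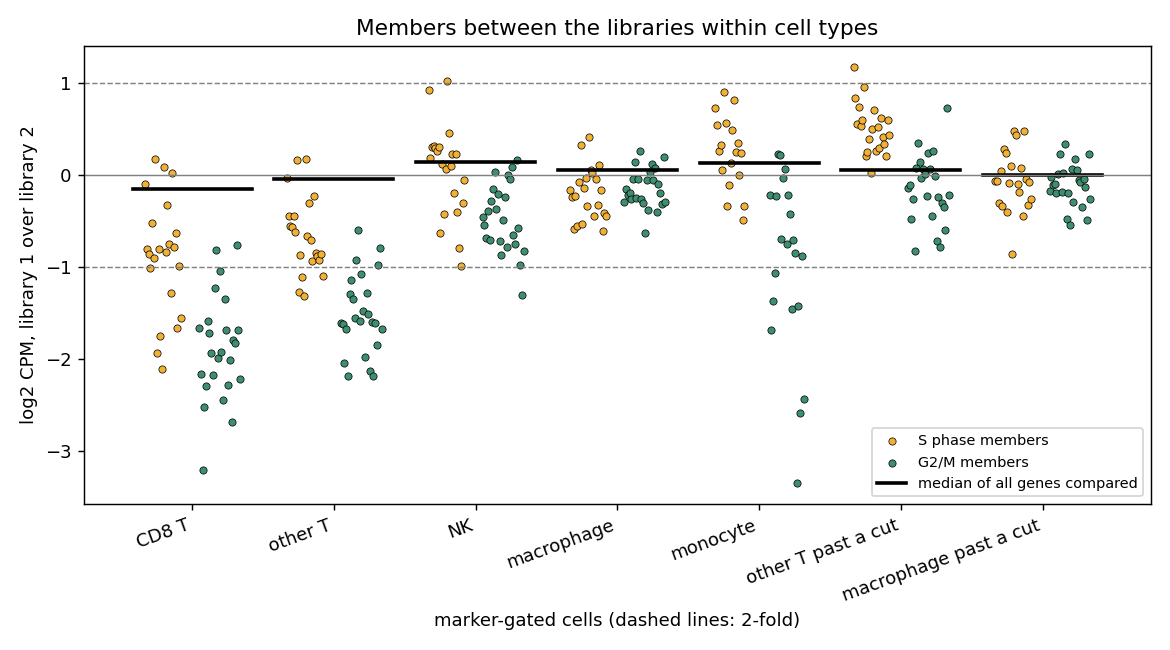
Log2 ratio of CPM, library 1 over library 2 (y axis), of each member with at least 50 UMIs in 7 sets of gated cells (x axis), S phase members left and G2/M members right in each set; thick lines are the median of all genes compared and dashed lines 2-fold. G2/M members lie lowest in CD8 T (median -1.93) and other T cells (-1.59), and close to 0 in macrophages (-0.19) and in cells past a cut.

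Among cells past a cut, types could be set against each other within a library. NK over other T cells gave a median log2 ratio of -0.22 over 44 members in library 1 and -0.011 over 47 in library 2. In library 1 Ccne1 was at least 2-fold lower in NK cells, where 4.84% of genes were, and Plk1 at least 2-fold higher, where 3.18% were. In library 2 no member was at least 2-fold apart, where 6.99% of genes were lower and 1.73% higher. Macrophages past a cut held less Dtl than other T cells past a cut, 20.7 against 100.2 CPM in library 1 and 28.3 against 65.2 CPM in library 2, log2 ratios of -2.28 (-2.93 to -1.66) and -1.21 (-1.44 to -0.97). Slbp was at 99.98 against 280.1 CPM and at 106.8 against 232.7 CPM, ratios of -1.49 and -1.12, and Hmgb2 at 1501 against 2801 CPM and 1190 against 2669 CPM, ratios of -0.90 and -1.17. At least 2-fold lower in macrophages were 8 of 46 members in library 1, against 10.8% of genes, and 3 of 47 in library 2, against 9.21%. Plk1 in library 1 was the only member at least 2-fold higher, against 20.1% of genes there and 19.7% in library 2. The share lower was above the background in library 1 and below it in library 2. The mix of classes differs. G2/M-only cells were 28 of 53 and 187 of 329 dividing macrophages, against 10 of 54 and 145 of 365 other T cells.

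Fibroblast-gated cells past a cut were set against the same T cells. Mki67 was at 146.6 against 464.0 CPM in other T cells of library 1 and 114.2 against 364.4 CPM in library 2, log2 ratios of -1.66 (-1.88 to -1.44) and -1.67 (-1.77 to -1.58). Ccne1 stood at -2.08 and -1.62, Dtl at -1.62 and -1.28 and Nusap1 at -1.64 and -1.15. Cenpe was higher, at 228.3 against 85.8 CPM and 269.8 against 106.1 CPM, a ratio of 1.41 and 1.35, as were Cks1b at 1.18 and 1.25, Aurka at 1.18 and 1.35 and Cdc20 at 1.98 and 1.03. At least 2-fold lower were 10 of 47 members in library 1, against 17.0% of genes, and 8 in library 2, against 20% of genes. At least 2-fold higher were 4 in each, against 26% and 24.0%. G2/M-only cells made up a larger part of this gate. Cells past both cuts made up a smaller part, 38.9% and 16.2% of its cells past a cut against 57.4% and 43.8% in other T cells. The part of this mix in these values was not tested. Over all gated types Mki67 and Nusap1 were highest in cells past both cuts in both libraries.

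Other genes of the cell cycle were followed in the same cells, past over below the cuts, for genes with at least 50 UMIs. This contrast was drawn with the members, so the members themselves are not read from it: 42 of 42 and 47 of 47 of them were at least 2-fold higher in macrophages past a cut, where 6.25% of genes were in library 1 and 8.08% in library 2. Replication partners outside the list, such as primase, polymerase and origin genes, were at least 2-fold higher in 24 of 25 and 32 of 32 cases in macrophages. Mitosis partners, such as kinesins, condensins and kinetochore genes, were so in 40 of 41 and 46 of 48. In other T cells the counts were 25 of 27 and 29 of 32 for replication partners, against 9.38% and 5.65% of all genes, and 27 of 29 and 47 of 48 for mitosis partners. In NK cells 17 of 18 and 26 of 32 replication partners were, against 5.43% and 5.88% of genes, and in CD8 T cells 14 of 16 and 24 of 32, against 8.09% and 5.57%. Stmn1, encoding the microtubule regulator stathmin, was at 843.4 against 31.9 CPM in macrophages of library 1 and at 971.2 against 66.2 CPM in library 2. Tk1, thymidine kinase, was at 136.4 against 6.91 CPM and 145.9 against 9.37 CPM. Foxm1, a transcription factor of G2/M genes, was at 45.7 against 1.06 CPM and 27.2 against 1.29 CPM.

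Genes that control entry into the cycle moved less and in both directions. Of 17 genes of G1 and E2F control, 7 of 16 tested were at least 2-fold higher in macrophages past a cut in library 1 and 7 of 17 in library 2, against 6.25% and 8.08% of genes, and none was 2-fold lower. E2f1, an activating E2F factor, was at 47.9 against 17.0 CPM and 43.7 against 17.9 CPM in macrophages, and Rbl1, the retinoblastoma relative p107, at 39.3 against 10.1 CPM and 32.7 against 7.91 CPM. Ccnd2, encoding a D-type cyclin that starts the cycle, was lower past the cuts, at 127.8 against 164.5 CPM and 130.3 against 199.7 CPM in macrophages, and at 292.5 against 459.0 CPM and 199.9 against 353.5 CPM in other T cells. Its log2 ratio ran from -0.36 (-0.60 to -0.13) to -0.82 (-0.92 to -0.72) over NK, other T and macrophage cells of both libraries.

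Of the 7 listed CDK inhibitors, 2 of 5 tested in macrophages of library 1 and 4 of 7 in library 2 were at least 2-fold higher past a cut, where 6.25% and 8.08% of genes were. In CD8 T cells it was 0 of 3 in library 1 and 3 of 5 in library 2, against 8.09% and 5.57% of genes. In NK cells it was 0 of 3 and 2 of 4, against 5.43% and 5.88%, and in other T cells 1 of 4 and 2 of 5, against 9.38% and 5.65%. In fibroblast-gated cells 1 of 7 was higher in each library, against 9.55% and 6.47% of genes. There 3 of 7 and 2 of 7 were at least 2-fold lower, against 13.6% and 10.5%. Cdkn2c, encoding p18, was higher in macrophages past a cut, at 64.99 against 4.61 CPM in library 1 and 63.6 against 5.53 CPM in library 2, and Cdkn2d, encoding p19, at 62.8 against 17.7 CPM and 82.95 against 24.1 CPM. Cdkn1a, encoding the p53-induced inhibitor p21, was lower, at 612.0 against 911.5 CPM and 874.2 against 1044 CPM, log2 ratios of -0.58 (-0.68 to -0.47) and -0.26 (-0.29 to -0.22). In other T cells Cdkn1a stood at -0.071 (-0.40 to 0.24) and -0.62 (-0.74 to -0.50), and Cdkn1b, encoding p27, at -0.99 (-1.30 to -0.70) and -0.39 (-0.56 to -0.22).

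Genes outside all lists whose pattern was most like that of the members were ranked, among 7811 genes, by the lower of their 2 library values of the ratio past over below the cuts in other T cells and macrophages. The first 10 were the replication-dependent histone genes Hist1h3b, Hist1h2ab, Hist1h2bb, Hist1h1b, Hist1h3c, Hist1h2ae and Hist1h2ap, together with Shcbp1, Pbk and Esco2. Hist1h3b scored 5.84 on the log2 scale and Hist1h2ap 4.5. Most histone mRNAs of this kind carry no poly(A) tail, and how fully the 3′ kit caught them was not tested. Between G2/M-only and S-only cells, Lockd scored highest at 2.92 and Knstrn, a spindle protein, next at 2.88, and Cdca7 lowest at -1.89.

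The counting limits a few members. A counted gene on the other strand overlaps the span of Mcm7, Ccne2, Gins2, Cdc45, Ccna2, Cdc20, Nusap1, Ube2c and Cdca8, and another on the same strand overlaps Cdt1, so reads of these pairs may be shared, and how strand was treated in counting was not analysed here. The feature table also lists Pcna-ps2 and Cks1brt, relatives of Pcna and Cks1b that could take or lend reads.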

How the data were processed

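Per the labels' protocols, CD45-selected cells of 2 groups of cisplatin-treated tumours were sequenced with a 10x 3′ kit, 1 library per group. The deposited values are raw UMI counts in a single matrix that pools both libraries (31053 genes, 12514 barcodes), whole numbers with no normalization. Cell Ranger and build mm10 are named in the submitters' processing notes, and version 3.1.0 per the file headers. Of the aligner's settings, the annotation and the cell calling, the sources used here say nothing. Library 1 held 5320 barcodes and 57488236 UMIs and library 2 held 7194 and 149734240.

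Barcodes with over 10% mitochondrial UMIs (79 and 96) or under 200 genes (1 of library 2) were left out, as was any under 500 UMIs. Scrublet (scanpy 1.11.5, expected rate 0.06) marked 0 doublets by its automatic threshold, so the top 5% by score (266 and 360 barcodes) were taken out. Gates needed fixed numbers of marker UMIs per 4000; the limits were chosen with the data in view. No gate uses a member. Counts summed over cells are CPM with exact Poisson intervals, ratios carry exact conditional binomial intervals and shares Clopper-Pearson intervals (scipy 1.17.1), at the 95% level. They cover counting error only. Depth sets this precision: library 2 has the narrower intervals. Genes with 50 UMIs in a comparison were compared, and 2-fold is the size called. No test was made: cells of 1 library are not replicates of its group.

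The members, lists and rules were chosen with earlier results of these data known. Any member, any gene of the pathway lists, and the 10 and 5 genes outside them with patterns most like the members may be named. The comparisons between types among cells past a cut were added after the data were seen. Gene positions are from GENCODE M21 and promoter windows from RefSeq GRCm38.p6. The calculations were tested on simulated data. Alternatives were another thinning, cut, gate, doublet rule, mitochondrial limit, scaling and UMI minimum.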

Additional observations from a re-analysis of the deposited data

How the results depend on the processing

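Of 150 values of the comparisons recomputed under other settings, 120 stayed within their interval, or within 1.5 times for counts, and 30 moved. These are percents and counts, which have no sign. Cuts passed by at most 0.1% of naive-type T cells (15 UMIs for the S phase and 57 for the G2/M list) moved the most: the shares past a cut in libraries 1 and 2 became 4.17% and 9.84% in CD8 T, 4.53% and 10.9% in other T, 3.33% and 6.68% in NK cells and 0.258% and 1.24% in macrophages. The S-only part of these cells became 65.0% and 70.7% in other T, 75.0% and 71.7% in NK cells and 100% in macrophages of each library, and the G2/M-only part of fibroblast-gated cells of library 2 33.3%. Thinning to 2000 UMIs gave 45.1% of CD8 T and 43.6% of other T cells in library 2, 19.2% and 32.2% of NK cells, and 13.5% of macrophages in library 2. Leaving Hmgb2, Slbp, Cks1b and Pcna out of the sums gave 52.4% of other T, 40.9% of NK cells and 17.8% of macrophages in library 2. It put the S-only part at 44.6% and 28.35% in other T cells, 34.75% in NK cells and 23.7% in macrophages of library 2, and the G2/M-only part of fibroblast-gated cells of library 2 at 52.35%. Members at least 2-fold lower in library 1 in NK cells numbered 1, against 2 without the doublet rule and 10 with stricter gates. The 100% in macrophages was fixed by the cut, since none of them reached 57 G2/M UMIs. The cause of the other moves was not tested.

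The library order of the shares in CD8 T, other T, NK, macrophage and fibroblast-gated cells held under all 8 settings. That of monocytes turned with thinning to 2000 UMIs (3.27% and 3.58%) and with a second random thinning (2.11% and 3.73%). The order of the S-only part turned in other T cells with the 0.1% cuts and in macrophages with the second thinning (15.7% and 17.45%). Of 752 recomputed ratios of single members between the libraries 72 left their interval, and of 96 levels 20. Chosen after seeing the data, 5 settings kept the sign of the Dtl, Slbp and Hmgb2 ratios between macrophages and other T cells past a cut, with 5 of 30 values outside their interval. Low depth leaves Ttk, Aurka, Bub1 and the smaller cell types imprecise. No paired analysis was possible because each group has 1 library.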
